A study of Mus musculus with 6 samples.

Results

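Mast cells are tissue-resident immune cells that store proteases, histamine, and heparin in granules and release them when the high-affinity IgE receptor or receptors of the Mas-related family are engaged. They depend on the receptor tyrosine kinase Kit and its ligand, and the mast cells of connective tissue, adipose tissue included, differ from those of the mucosa in the chymases they make. A set of 10 genes, 5 for granule proteases, 4 for surface receptors, and 1 for the enzyme that makes histamine, were followed in the inguinal white adipose tissue (IWAT) of mice with and without an *Ebf2* nonsense variant. They are 10 of 55491 gene identifiers in the deposited table and all 10 were among the 32664 genes with a count in any library. The genes were selected on their use as mast cell genes with the values of the genotype comparison in these libraries already known. The difference between genotypes is therefore given for them as a description, and whether the fits across all genes called them is stated only as counts beside the share of all genes called.

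The study sequenced RNA from IWAT of male C57BL/6J mice at 4 weeks of age on regular chow, 3 wild-type mice (*Ebf2*+/+) and 3 mice heterozygous for the knock-in allele p.E165X (*Ebf2*E165X/+), with 1 library per mouse. The knock-in allele was made by CRISPR/Cas9 and is carried in the germline, so mast cells carry it as well as adipocytes. The study's methods name a C57BL/6J background, while its supplement describes injection of hybrid B6SJLF1 zygotes, with founders then bred to C57BL/6J. Whether the genotypes differ in other sequence on the *Ebf2* chromosome was not tested. Expected counts, the estimated number of fragments per gene, summed to 106820505 to 135039488 per library and are given as CPM, counts per 1000000 after scaling of the library size with TMM factors. *Ebf2*, which encodes a transcription factor of adipocyte precursors and thermogenic adipocytes, stood at 38.3, 41.3, and 37.2 CPM in wild-type libraries and at 22.8, 22.9, and 21.1 CPM in heterozygous libraries, without overlap (log2 fold change −0.81, SE 0.076, adjusted *P* = 0.0596 in edgeR, with 1.23e-13 in DESeq2). The tissue label fits its markers, since 5 adipocyte genes (*Adipoq*, *Plin1*, *Fabp4*, *Lep*, and *Lipe*) summed to between 6036 and 11054 CPM. Other tissue was present too. The summed level of 8 skeletal muscle genes was 38987 CPM for the third heterozygous mouse, with 666 to 6853 CPM elsewhere, and 4 genes of lymph node stroma and follicles (*Glycam1*, *Madcam1*, *Ccl21a*, and *Cr2*) summed to 473, 504, and 464 CPM in wild-type and 620, 577, and 486 CPM in heterozygous mice. The lymph node sums overlapped, but all 4 genes had log2 fold changes above 0, and *Cr2* was higher in every heterozygous mouse.

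*Mcpt4*, a chymase of connective tissue mast cells, lies at chr14:56059629-56062313 (GRCm38, GENCODE M21, minus strand). *Cma1*, another chymase gene, lies 115 kb from it at chr14:55941451-55944675. Both are on the chromosome of *Ebf2*, with *Mcpt4* 11.2 Mb before the start of that gene. The other 8 genes lie on other chromosomes, among them *Cpa3* on chromosome 3, *Kit* on chromosome 5, and the tryptase genes *Tpsb2* and *Tpsab1*, which are 20.7 kb apart on chromosome 17. The 250 bases before the transcription start are printed for *Mcpt4* and *Cma1*, because they share the *Ebf2* chromosome, and for *Cpa3*, *Ms4a2*, and *Mrgprb1*, the genes with a RefSeq window that lie elsewhere and were higher in every heterozygous library. The sequences are from RefSeq on GRCm38.p6, 5′ to 3′ on the strand of the gene, and capitals mark each GATAA or its reverse complement, the core read by GATA factors, a class of factors that acts in mast cells. They cover chr14:56062311-56062560, chr14:55944676-55944925, chr3:20242182-20242431, chr19:11623720-11623969, and chr7:48456343-48456592, in this order, and the last holds no GATAA.

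Mcpt4: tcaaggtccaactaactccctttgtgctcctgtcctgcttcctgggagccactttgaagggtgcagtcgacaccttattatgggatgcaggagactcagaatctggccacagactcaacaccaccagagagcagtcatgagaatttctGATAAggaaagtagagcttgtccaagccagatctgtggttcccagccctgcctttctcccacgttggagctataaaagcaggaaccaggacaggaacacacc
Cma1: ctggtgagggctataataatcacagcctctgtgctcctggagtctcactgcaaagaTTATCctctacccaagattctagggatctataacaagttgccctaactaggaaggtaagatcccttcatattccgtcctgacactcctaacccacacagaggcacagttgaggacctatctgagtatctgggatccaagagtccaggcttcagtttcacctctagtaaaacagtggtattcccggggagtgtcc
Cpa3: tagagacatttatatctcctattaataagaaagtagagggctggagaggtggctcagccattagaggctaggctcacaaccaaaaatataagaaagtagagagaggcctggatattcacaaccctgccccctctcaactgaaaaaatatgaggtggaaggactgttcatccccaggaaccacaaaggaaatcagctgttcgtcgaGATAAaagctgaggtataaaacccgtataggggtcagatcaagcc
Ms4a2: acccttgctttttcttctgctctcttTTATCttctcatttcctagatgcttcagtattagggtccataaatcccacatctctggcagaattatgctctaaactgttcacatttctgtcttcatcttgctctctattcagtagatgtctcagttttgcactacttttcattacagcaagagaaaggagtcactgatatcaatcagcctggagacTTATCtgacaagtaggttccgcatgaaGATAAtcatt
Mrgprb1: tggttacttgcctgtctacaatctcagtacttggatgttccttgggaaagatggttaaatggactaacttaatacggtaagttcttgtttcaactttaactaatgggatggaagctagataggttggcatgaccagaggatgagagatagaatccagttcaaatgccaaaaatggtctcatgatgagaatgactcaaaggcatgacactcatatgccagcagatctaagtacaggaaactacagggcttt

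GATAA was found on either strand in the windows of *Mcpt4*, *Cma1*, *Cpa3*, *Fcer1a*, and *Ms4a2*, that is, in 5 of the 8 genes with a window, and in 22.6% of the 32851 windows of the RefSeq table. *Ms4a2* held 3 copies, while 4.28% of all windows held 2 or more. The E-box CATGTG, one of the forms bound by the mast cell and melanocyte factor MITF, was in the *Fcer1a* window and in 12.3% of all windows, and the other form, CACGTG, was in none of the 8 and in 6.02% of all. CCCNNGGG, the palindrome read by EBF factors, was found for *Kit* and in 11.8% of all windows. No motif overlapped another. *Hdc* and *Mrgprb1* held none of these letters, and *Tpsb2* and *Tpsab1* had no window in the table.

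Among wild-type mice the 10 genes spanned a wide range of levels (plot of CPM by gene). Per kb of the longest coding transcript, *Mcpt4* (17.4 ± 1.45 CPM per kb, SD, n = 3 mice) and *Cma1* (16.0 ± 3.18) stood first, followed by the carboxypeptidase gene *Cpa3* (11.6 ± 1.47) and the tryptase gene *Tpsb2* (10.8 ± 1.997). The ranges of neighbours in this order overlapped among these 4 genes. *Kit* was next at 4.79 ± 0.507 CPM per kb, with a range below those of all 4, then *Hdc* at 1.46 ± 0.302 and *Mrgprb1* at 0.776 ± 0.107. *Ms4a2* (0.234 ± 0.0574), *Fcer1a* (0.229 ± 0.123), and *Tpsab1* (0.0953 ± 0.0570 CPM per kb) were the lowest, and their ranges overlapped from each to the next. The study's methods name a 3′ sequencing method, for which scaling by length would not apply, but the labels name a kit from a different maker. On the CPM scale without length, *Kit* stood first, at 25.1 ± 2.66 CPM, and the other genes kept their order.

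**Figure D1:**
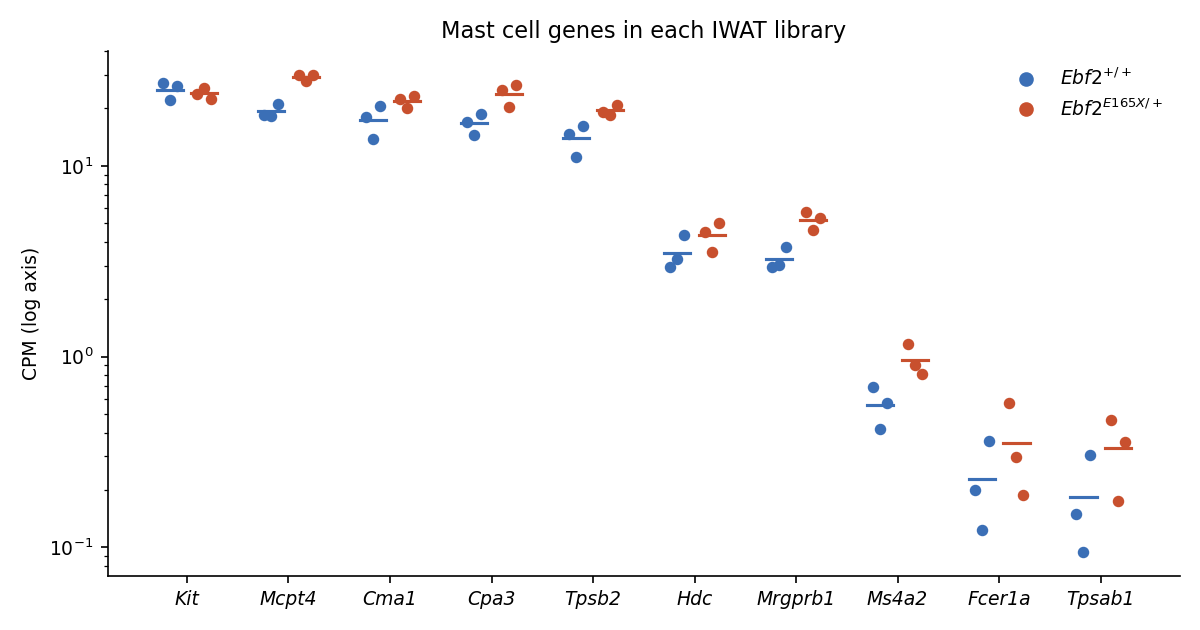
CPM of the 10 mast cell genes in each library on a log axis, with the 3 Ebf2+/+ libraries in blue, the 3 Ebf2E165X/+ libraries in red, and a bar at each group mean, ordered by the Ebf2+/+ mean. Mcpt4, Cpa3, Tpsb2, Mrgprb1, and Ms4a2 have every red point above every blue point, while Kit has its groups mixed.

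*Mcpt4* was at 18.4, 18.3, and 21.1 CPM in wild-type mice and at 30.1, 27.9, and 29.9 CPM in heterozygous mice. The genotypes did not overlap, and the 3 heterozygous libraries lay close together. The means of 19.3 ± 1.60 and 29.3 ± 1.24 CPM (SD, n = 3 mice) were 1.52-fold apart, a log2 fold change of 0.60 (SE 0.087), which stayed between 0.56 and 0.65 with each mouse left out in turn. In bulk tissue, more mast cells and more of a transcript per mast cell cannot be told apart. Among the 18905 genes that reached 10 counts in each library, 771 (4.08%) had a log2 fold change at or above that of *Mcpt4*. *Cma1* was at 18.1, 13.8, and 20.6 CPM in wild-type mice and at 22.4, 19.99, and 23.2 CPM in heterozygous mice. Here the groups overlapped, as wild-type mouse 3 lay above heterozygous mouse 2, and the log2 fold change was 0.32 (SE 0.15). It ran from 0.16 without wild-type mouse 2 to 0.43 without wild-type mouse 3.

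The other granule protease genes were those of a carboxypeptidase and of tryptases. *Cpa3*, which encodes the mast cell carboxypeptidase, was at 17.1, 14.5, and 18.8 CPM in wild-type mice and at 25.1, 20.3, and 26.4 CPM in heterozygous mice, without overlap. Its log2 fold change was 0.51 (SE 0.14). *Tpsb2*, the main tryptase gene of connective tissue mast cells, was at 14.6, 11.1, and 16.1 against 19.2, 18.5, and 20.8 CPM, also without overlap, with a log2 fold change of 0.48 (SE 0.14). *Tpsab1*, the neighbouring tryptase gene, which carries a splice site mutation in C57BL/6 mice, had only 18, 10, and 38 counts in wild-type libraries and 54, 22, and 46 in heterozygous libraries. These overlapped, and the log2 fold change of 0.80 had an SE of 0.49 and ran from 0.50 to 1.31 with 1 mouse left out. Longest transcripts of the 2 tryptase genes were 69.6% identical over 1156 aligned bases, and those of *Mcpt4* and *Cma1* were 67.7% identical over 961.

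Of the receptor genes, *Mrgprb1*, which encodes a Mas-related G protein–coupled receptor, was at 2.95, 3.04, and 3.76 CPM in wild-type mice and at 5.72, 4.604, and 5.36 CPM in heterozygous mice. The groups were apart and the log2 fold change was 0.68 (SE 0.17). *Ms4a2*, the β chain of the high-affinity IgE receptor, had 83, 44, and 71 counts in wild-type libraries and 135, 113, and 104 in heterozygous libraries. It did not overlap either, at a log2 fold change of 0.76 (SE 0.27). *Fcer1a*, the IgE-binding α chain of the same receptor, had 24, 13, and 45 counts against 66, 37, and 24. The second and the third heterozygous mice were within the wild-type range, and the log2 fold change of 0.58 (SE 0.50) ran from 0.069 to 1.02 with 1 mouse left out.

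*Kit* was the only gene of the 10 with a log2 fold change below 0. It was at 27.2, 22.1, and 26.1 CPM in wild-type mice and at 23.8, 25.6, and 22.5 CPM in heterozygous mice, so that the genotypes were intermingled, with a log2 fold change of −0.068 (SE 0.10). *Kit* is also made by melanocytes and other cells. A list of 5 melanocyte genes (*Dct*, *Tyrp1*, *Pmel*, *Mlana*, and *Tyr*), of which *Dct* was the most abundant and none was at 0, summed to 6.14, 1.66, and 6.42 CPM in wild-type libraries and to 5.80, 1.97, and 1.31 CPM in heterozygous libraries. All 5 had log2 fold changes below 0, with a median of −0.61, and their sums overlapped between genotypes. The part of melanocytes in the *Kit* values was not tested. *Hdc*, the histidine decarboxylase that makes histamine, was at 2.94, 3.25, and 4.32 against 4.51, 3.52, and 5.03 CPM. The groups overlapped in the second heterozygous mouse, and the log2 fold change of 0.31 (SE 0.21) ran from 0.19 to 0.47 with 1 mouse left out.

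**Figure D2:**
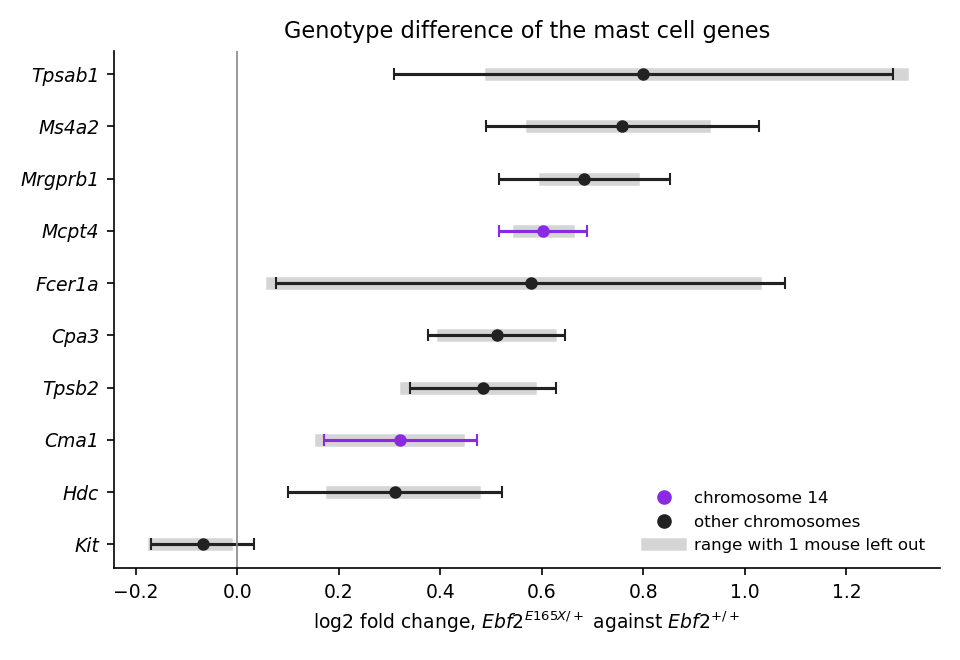
Log2 fold change of each mast cell gene, Ebf2E165X/+ against Ebf2+/+ mice, from edgeR (points) with its standard error (bars) and the range over fits that left out 1 of the 6 mice (grey), with Mcpt4 and Cma1 of chromosome 14 in purple. In all, 9 of the 10 genes lie above 0 in all of these fits, and Kit lies below 0, between −0.16 and −0.022.

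Across the list, 9 of the 10 log2 fold changes were above 0. Of the 18905 genes that reached 10 counts in each library, 56.1% were above 0. The median of the 10 was 0.54, against 0.014 over all 32664 genes tested and 0.025 over those 18905. The 8 genes on other chromosomes had the same median of 0.54. It could not differ, since *Mcpt4* (0.60) lay above the middle values of the 10 and *Cma1* (0.32) below them. Nothing is read from it. Of the 10, 5 (*Mcpt4*, *Cpa3*, *Tpsb2*, *Mrgprb1*, and *Ms4a2*) were higher in every heterozygous library than in any wild-type library and none was lower in every one, while 6.66% of the 18905 genes were higher in this way. With calls set at an adjusted *P* below 0.05 and more than a 1.5-fold difference, edgeR called 0 of the 10, where it called 0.00918% of all genes in either direction and 0.00612% as higher. An unadjusted *P* under 0.05 in edgeR was reached by 5 of the 10, all higher, against 1.68% of all genes higher and 3.09% lower. DESeq2 gave an adjusted *P* for 8 of the 10 and called 2 of them, *Mcpt4* and *Mrgprb1*, as higher, where it called 0.0746% of the 16078 genes with an adjusted *P* as higher. Because the genes were picked with this comparison in view, nothing is read from these counts.

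Libraries of 1 genotype also differed in these genes (map of the genes library by library). Within wild-type mice, the second mouse was the lowest for 8 of the 10 genes and the third mouse the highest for 8, while over the 18905 genes these were the case for 31.2% and 31.5%. The second wild-type mouse was also the lowest for each of the 5 macrophage genes (*Adgre1*, *Cd68*, *Csf1r*, *Mrc1*, and *Lyz2*). Within heterozygous mice, the second mouse was the lowest for 7 genes (28.5% of all), and the first and the third were the highest for 5 and 4 (29.4% and 36.1% of all). The summed level of the 10 genes was 102, 86.7, and 112 CPM in wild-type mice and 133, 122, and 135 CPM in heterozygous mice, or 100.3 ± 12.7 and 129.8 ± 7.02 CPM (SD, n = 3 mice). The sums did not overlap and were 1.29-fold apart. Without *Kit* and *Mcpt4*, the most abundant genes by CPM, the remaining 8 genes summed to 55.9 ± 9.28 and 76.5 ± 7.31 CPM, 1.37-fold apart.

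**Figure D3:**
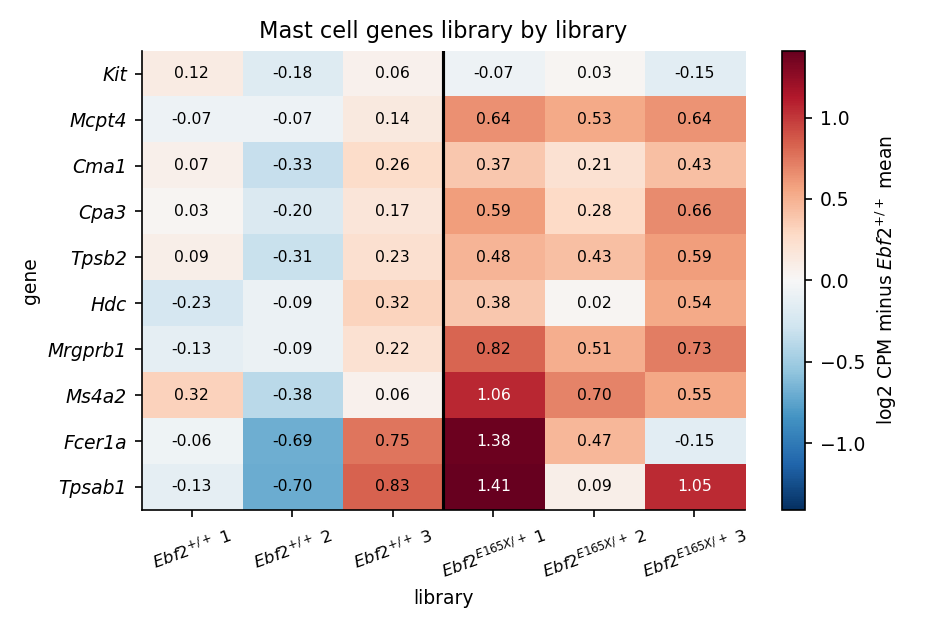
Log2 CPM of each mast cell gene (vertical axis) in each library (horizontal axis) minus the Ebf2+/+ mean of that gene, in red where higher and blue where lower. The second Ebf2+/+ library is the lowest of all 6 for 8 of the 10 genes, and the first and the third Ebf2E165X/+ libraries hold the highest value for 5 and 4.

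Within the mast cell transcripts, the makeup was compared as shares of the counts of the 10 genes. *Mcpt4* took 18.0%, 21.1%, and 18.9% of them in wild-type libraries and 22.6%, 22.9%, and 22.2% in heterozygous libraries, without overlap. The share of *Kit* was 26.6%, 25.5%, and 23.3% against 17.9%, 21.02%, and 16.7%, which was lower in every heterozygous mouse. With *Kit*, whose CPM overlapped between genotypes, left out of the total, the *Mcpt4* share was 24.5%, 28.4%, and 24.6% against 27.6%, 29.0%, and 26.7%, which overlapped, so the separation of the *Mcpt4* share depended on *Kit* being counted. The counts of *Kit* per count of *Mcpt4* were 1.48, 1.21, and 1.23 against 0.791, 0.918, and 0.751, without overlap. The ratio of *Mcpt4* to *Cma1* was 1.02, 1.33, and 1.03 in wild-type libraries and 1.34, 1.39, and 1.29 in heterozygous libraries, and its ratio to *Cpa3* was 1.08, 1.26, and 1.13 against 1.20, 1.37, and 1.13, so these 2 ratios overlapped between genotypes.

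By the smallest root mean square difference of centred log2 CPM over the 6 libraries, the 5 genes with a pattern nearest to that of *Mcpt4* among 18905 genes were *A430103D13Rik*, *Tg*, *Slc7a7*, *Mrgprb1*, and *Serpina1d*, at differences from 0.0687 to 0.0887. *Mrgprb1* was the only one of the list among them. *Cpa3* came at place 17 and *Tpsb2* at place 30, while *Cma1* was at 198, *Hdc* at 548, *Ms4a2* at 2681, *Kit* at 10219, *Tpsab1* at 16556, and *Fcer1a* at 16881. The measure takes in the genotype difference, which was known when the genes were picked, so nothing is read from these places. *Slc7a7*, an amino acid transporter gene, also lies on chromosome 14 (chr14:54369442-54417780) and was at 11.2, 11.8, and 12.8 against 17.4, 16.8, and 16.2 CPM. It was higher in every heterozygous mouse, and was not called by edgeR (log2 fold change 0.49, SE 0.093, adjusted *P* = 0.474). DESeq2 did not call it either, at a log2 fold change of 0.48 (adjusted *P* = 0.000714), which was below the 1.5-fold limit. Because *Slc7a7* was picked for its nearness to *Mcpt4* over these same 6 libraries, nothing is read from its separation or *P* values.

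*Mcpt4* and *Cma1* belong to a cluster of chymase, cathepsin, and granzyme genes on chromosome 14, and 15 genes of the cluster were listed. Of these, 11 had a count in any library, and only 5 had at least 10 in every one. Beside the 2 chymase genes these were *Ctsg* (cathepsin G, also made by neutrophils), with a log2 fold change of 0.17 (SE 0.46), and the cytotoxic granule genes *Gzmb* (−0.039, SE 0.37) and *Gzmc* (−0.27, SE 0.48). No gene of the cluster was called by edgeR (0.00918% of all genes), 1 (*Mcpt4*) had an unadjusted *P* under 0.05 (1.68% of all genes higher and 3.09% lower), and DESeq2 called *Mcpt4* alone of the 3 with an adjusted *P* (0.0746% of all genes higher). The genes other than *Mcpt4* and *Cma1* had adjusted *P* values of 0.783 or above from edgeR. The mucosal chymase genes of the cluster were close to undetected, with at most 2 counts in any library for *Mcpt1* and at most 6 for *Mcpt2*. *Mcpt9* had no count in any of the 6 libraries, which allows up to 3 counts in each, or 0.0285 CPM in the smallest, and *Cma2*, whose transcript is 98.1% identical to that of *Mcpt9* over 809 bases so that their reads may not be separable, had 1 to 5. *Mcpt4* and *Cma2* transcripts were 85.8% identical over 925 bases.

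Another 38 genes of mast cell biology were listed by role, again with earlier results of these data known, and 35 had a count. None was called by edgeR (0.00918% of all genes), and none of the 29 with an adjusted *P* was called by DESeq2 (0.0746% of all genes higher). An unadjusted *P* under 0.05 in edgeR was reached by 4, all higher in heterozygous mice, and by none as lower, against 1.68% and 3.09% of all genes tested. Their median log2 fold change was 0.15, with 29 above 0 and 6 below. Of the 18905 genes that reached 10 counts in each library, 56.1% were above 0. Of the 32 that reached 10 counts in each library, 11 were higher in every heterozygous library and none was lower in every one, against 6.66% and 6.78% of the 18905 genes.

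Among genes for granule contents, *Slc18a2*, the vesicular transporter that loads amines such as histamine into granules, was at 3.55, 3.26, and 3.51 CPM in wild-type mice and at 4.61, 4.64, and 5.11 CPM in heterozygous mice. The genotypes were well separated, and the log2 fold change was 0.47 (edgeR, SE 0.14, adjusted *P* = 0.783). The adjusted *P* from DESeq2 was 0.0325, at a DESeq2 log2 fold change of 0.47 that was below the limit for a call. *Tpsg1*, a membrane-anchored tryptase gene, and *Tph1*, which starts serotonin synthesis, had at most 45 counts and log2 fold changes of 0.47 (SE 0.25) and 0.42 (SE 0.24), without overlap and with the same adjusted *P* of 0.783 from edgeR. *Srgn*, the proteoglycan core of granules in many leukocytes (0.081, SE 0.13), and *Ndst2*, which sulfates heparin (0.028, SE 0.072), overlapped between genotypes.

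The receptor and signalling genes included *Mrgprb2*, the mast cell receptor for basic secretagogues, which was at 1.22, 1.14, and 1.42 against 1.75, 1.56, and 1.75 CPM. It was higher in every heterozygous mouse and not called (log2 fold change 0.42, SE 0.19, adjusted *P* = 0.783 from edgeR). *Fcer1g*, the γ chain that the IgE receptor shares with other Fc receptors of myeloid cells, had a log2 fold change of 0.12 (SE 0.15), and the IL-33 receptor gene *Il1rl1* one of 0.21 (SE 0.16), both with overlap. The kinase genes *Syk* (0.30, SE 0.11) and *Btk* (0.27, SE 0.13), the adaptor genes *Lat2* (0.24, SE 0.12) and *Lcp2* (0.22, SE 0.10), and the phospholipase gene *Plcg2* (0.25, SE 0.11) were higher in every heterozygous mouse (adjusted *P* = 0.783 in edgeR for all 5). Of the same kinds of gene, the kinase gene *Lyn* (0.045, SE 0.075), the adaptor gene *Lat* (0.20, SE 0.16), and the phospholipase gene *Plcg1* (−0.061, SE 0.092) overlapped between genotypes, as did *Rab27b* (0.33, SE 0.31), a GTPase gene of granule release, the granule membrane gene *Cd63* (0.10, SE 0.12), and the ectoenzyme gene *Enpp3* (0.033, SE 0.14). These signalling genes are also expressed in other leukocytes, whose part in these differences was not tested.

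The 5 genes that make prostaglandins and leukotrienes had a median log2 fold change of 0.033, from −0.19 for *Ltc4s* (SE 0.15) to 0.24 for *Hpgds* (SE 0.20), and every one overlapped between genotypes. Of 4 transcription factors, *Gata1* was at 0.708, 0.560, and 0.839 CPM in wild-type mice and at 1.74, 1.19, and 0.976 CPM in heterozygous mice, without overlap (log2 fold change 0.87, SE 0.28, adjusted *P* = 0.783 from edgeR). *Gata1* is also expressed in erythroid cells. The 5 erythroid genes, led by *Hbb-bs* and none at 0, summed to 3074, 2135, and 3315 against 4550.1, 2558, and 2002 CPM. The first heterozygous mouse was the highest in both, while the third had the lowest erythroid sum and *Gata1* above every wild-type mouse. The part of erythroid cells in the *Gata1* values was not tested. *Gata2* (−0.031, SE 0.12) and *Mitf* (0.14, SE 0.15) overlapped, and *Tal1*, also an erythroid gene, was higher in every heterozygous mouse (0.19, SE 0.13, adjusted *P* = 0.783 from edgeR). *Kitl*, the ligand of Kit made by stromal cells, was at 104 ± 4.25 and 106 ± 14.96 CPM (log2 fold change 0.034, SE 0.11, adjusted *P* = 0.946 from edgeR), *Il33* had a log2 fold change of 0.13 (SE 0.12), and *Il3* and *Il9* had no count.

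**Figure D4:**
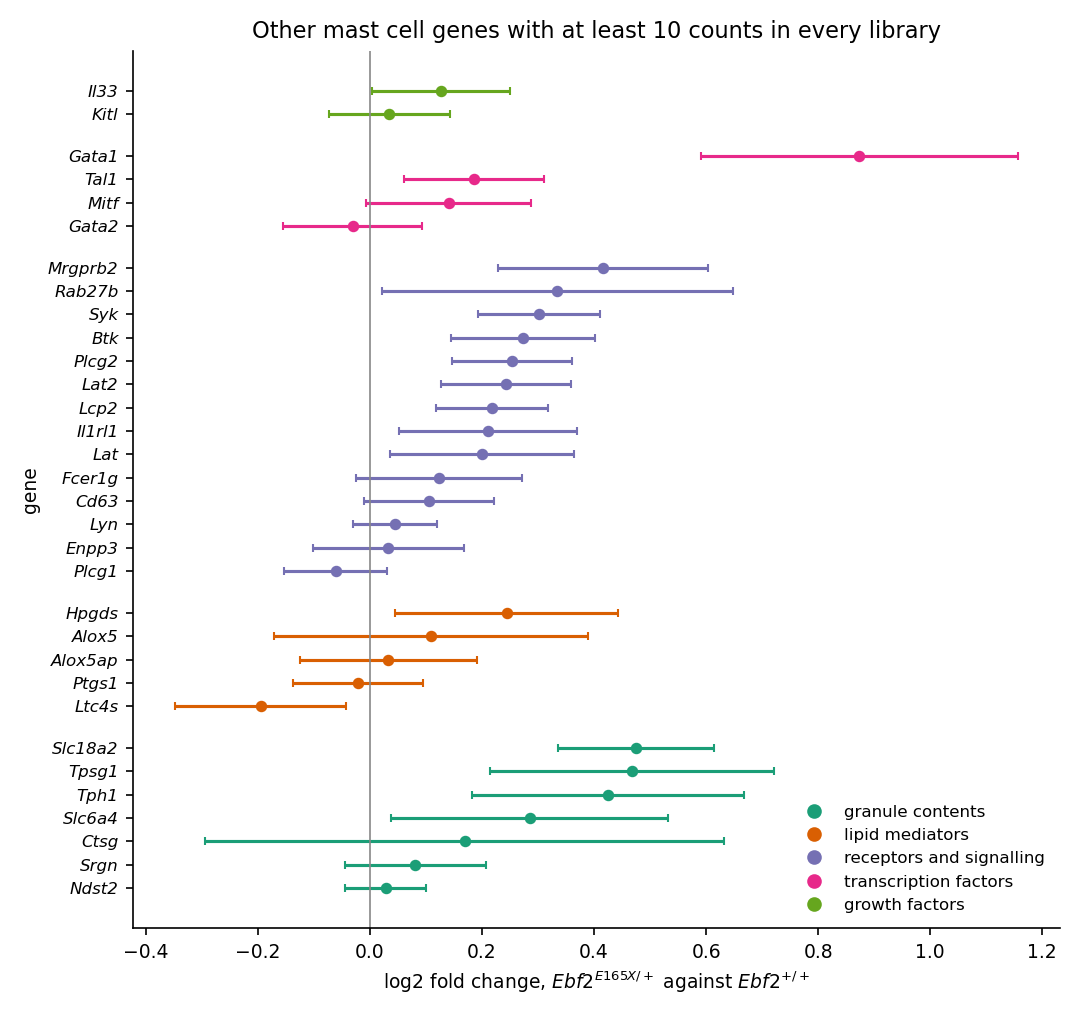
Log2 fold change, Ebf2E165X/+ against Ebf2+/+ mice, with its standard error (bars) for 32 other mast cell genes that reached 10 counts in each library, grouped by role. Most points lie between 0 and 0.5, Gata1 lies highest at 0.87, and Ltc4s lies lowest at −0.19.

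Other cell types were compared through the summed CPM of marker genes (plot of marker sums). Basophils share several mast cell genes, and their markers were sparse. *Mcpt8* had 4 to 27 counts, *Prss34* 47 to 107, *Cd200r3* 72 to 149, and *Il4* 8 to 19, and the 4 genes summed to 1.56, 1.34, and 1.90 CPM against 1.97, 1.74, and 2.13 CPM, with overlap. *Ptprc*, the pan-leukocyte marker, was at 335, 438, and 471 CPM in wild-type mice and at 488, 560, and 461 CPM in heterozygous mice. The 5 macrophage genes, led by *Lyz2*, summed to 1446, 1184, and 1493 against 1487, 1415, and 1566 CPM. Both overlapped between genotypes. The 6 neutrophil genes, led by *S100a9*, summed to 38.4, 34.4, and 49.4 against 51.7, 44.1, and 74.0 CPM, a 1.39-fold difference of the means with overlap, beside 1.29-fold for the mast cell genes. All 6 had log2 fold changes above 0, and *Ngp* and *Camp* were higher in every heterozygous mouse. The T cell genes summed to 122 ± 20.5 and 141 ± 13.7 CPM, 1.15-fold apart, and the eosinophil genes to 11.4 ± 1.62 and 11.8 ± 1.27 CPM. Endothelial genes summed to 980.4 ± 46.5 and 861 ± 111 CPM, progenitor genes to 807 ± 123 and 844 ± 32.02 CPM, and keratinocyte genes to 67.5 ± 71.9 and 17.2 ± 23.7 CPM, all with overlap. All 4 endothelial and all 5 adipocyte genes had log2 fold changes below 0, and *Cdh5* and *Tek* of the former and *Adipoq* and *Lipe* of the latter were lower in every heterozygous mouse.

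The size of the mast cell difference depended on what it was set against. The sum of the 10 genes per unit of *Ptprc* was 0.305, 0.198, and 0.238 in wild-type mice and 0.273, 0.217, and 0.292 in heterozygous mice, which overlapped, with a log2 ratio of the means of 0.077, against 0.37 for the sums themselves. Relative to the macrophage genes it was 0.0707, 0.0732, and 0.0750 against 0.0894, 0.0860, and 0.0860, without overlap. Relative to the adipocyte genes, which were lower on average in heterozygous mice at 7693 ± 1533 CPM against 9922 ± 1262 CPM, it was 0.0101, 0.00785, and 0.0131 against 0.0147, 0.0153, and 0.0223, a log2 ratio of 0.75. *Mcpt4* alone per unit of *Ptprc* was 0.0549, 0.0418, and 0.0449 against 0.0617, 0.0498, and 0.0649, which overlapped, with a log2 ratio of 0.32. Its ratios to the macrophage and the adipocyte genes did not overlap, with log2 ratios of 0.48 and 0.99. The part of these other cells in the mast cell values was not tested. Without the third heterozygous mouse, whose library held the most muscle transcripts, the log2 ratio of the sums was 0.34.

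**Figure D5:**
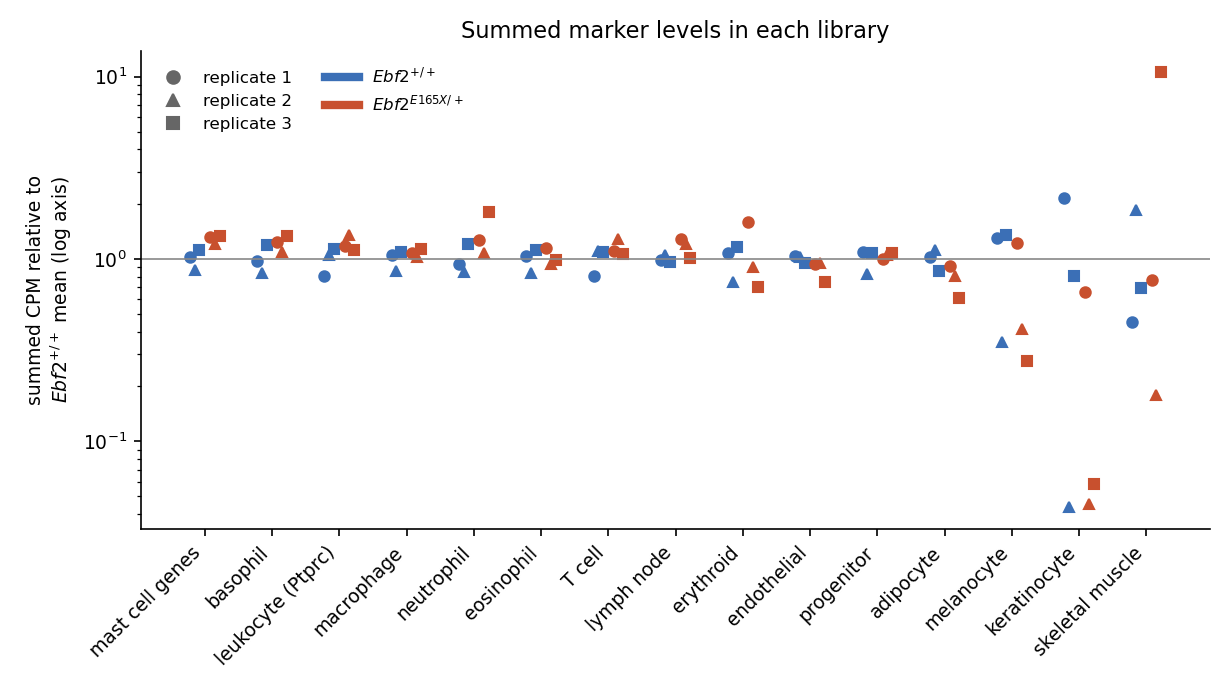
Summed CPM of the 10 mast cell genes and of 14 marker lists in each library, relative to the Ebf2+/+ mean of the list, on a log axis, with genotype by colour and replicate by symbol. The mast cell sums of the Ebf2E165X/+ libraries all lie above those of the Ebf2+/+ libraries, and the muscle and keratinocyte sums spread most.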

How the data were processed

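The authors deposited expected counts per gene, not scaled for library size, with 1 column per library, and all 332946 values were whole numbers. Per the labels, the submitters' processing notes name STAR 2.7.8a, RSEM 1.3.3, cutadapt 4.8, and GRCm38. The study's methods name 3′ libraries, and the labels a kit of another maker. The mast cell genes and all lists were chosen with earlier results of these data known. Any listed gene could be named, as could the 5 genes nearest to *Mcpt4* in pattern.

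Counts were analysed with edgeR 4.0.16 in R 4.3.3. Genes above 0 in 1 library or more were tested together, with TMM factors, the quasi-likelihood F test for genotype (no covariate), Benjamini-Hochberg adjustment, and a prior count of 2. The standard error is the log2 fold change divided by the square root of the F statistic. Each library was 1 mouse, so *P* values weigh the genotype difference against the spread between mice within each genotype. DESeq2 1.42.0, limma-voom (limma 3.58.1), other filters, scalings, and prior counts, a replicate block, and each mouse left out were the alternatives, and the fits were tested on simulated data. Transcript lengths and identities were computed from GENCODE M21 (Biopython 1.88), in place of the protein identities that had been planned. A further marker list that had been planned is not reported here.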

Additional observations from a re-analysis of the deposited data

How the results depend on the processing

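All 130 alternative log2 fold changes of the 10 genes kept their direction and moved by less than the spread between replicates. For fits that left out 1 of 3 mice, the second part was all but fixed in advance, so nothing is read from it there. *Fcer1a* went from 0.58 to 0.069 without the first *Ebf2*E165X/+ mouse, and *Cma1* from 0.32 to 0.16 without the second *Ebf2*+/+ mouse. DESeq2 called 98 genes in all, 2 of the 10 mast cell genes, and 1 gene of the chromosome 14 cluster, against 3, 0, and 0 in edgeR. With each mouse left out, edgeR called from 1 gene (without the second *Ebf2*+/+ mouse) to 11 genes (without the third *Ebf2*E165X/+ mouse). Of the 10 genes, 5 to 8 did not overlap in these smaller sets, with 8 where the third *Ebf2*+/+ or the second *Ebf2*E165X/+ mouse was left out. All were higher, except that without the second *Ebf2*+/+ mouse 5 were higher and 1, *Kit*, was lower. Over all 18905 genes, 27.3% and 21.9% did not overlap in either direction in the sets with 8. The share was 20.9% to 26.8% in the remaining sets and 13.4% with all mice. Without TMM factors 6 of the 10 did not overlap, all higher, while 9.12% of all genes were higher and 3.88% lower without overlap, against 6.66% and 6.78% with them. The log2 ratio of the summed levels was 0.077 relative to *Ptprc* and 0.75 relative to adipocyte genes, denominators that were chosen after seeing the data, and ran from 0.28 to 0.46 with each mouse left out. Per kb, the places of *Mcpt4*, *Cma1*, *Cpa3*, *Tpsb2*, and *Kit* in *Ebf2*+/+ mice were 1, 2, 3, 4, and 5. Same-numbered mice did not deviate together (correlations across 18905 genes of 0.153, −0.278, and −0.162), and with the replicate block edgeR called 2 genes, none of the 10. The cause of these changes was not tested. The low counts of *Tpsab1* and *Fcer1a* limit their values.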
